A study of Sus scrofa with 6 samples.

Results

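The 5 hair keratin transcripts *KRT31*, *KRT33B*, *KRT81*, *KRT83* and *KRT84* were followed in ear tissue of 6 Sutai piglets, out of 22204 Ensembl transcripts with at least 1 read. They were chosen by name from the study's list of genes that differed between the genotypes in these same piglets, and each name had 1 transcript. *KRT31* (ENSSSCT00000028977) and *KRT33B* (ENSSSCT00000031557) are type I keratins, while *KRT81* (ENSSSCT00000030416), *KRT83* (ENSSSCT00000031278) and *KRT84* (ENSSSCT00000000260) are type II. All 5 passed the expression filter, which kept 16645 transcripts. Because the genotype contrast chose the members, their differences between the genotypes are given as a description and were not tested as evidence.

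Sutai is a breed from a cross of Chinese and Duroc pigs. The piglets were 3 wild-type animals, with the genotype qq and the names 6161ST, 6165ST and 6407, and 3 CNV/CNV animals, with the genotype QQ and the names 6185STQ, 6415 and 6434. QQ piglets carry on both chromosomes a copy number variation (CNV) that reaches into the *MSRB3* gene and goes with large ears. All were newborn by the labels and 2 days old by the article, and no treatment is named for any of them. The article names the sequenced material only as ear tissue, and the share of skin, hair follicles and cartilage in each library is not given. Fewer hair-forming cells and less keratin RNA in each such cell therefore cannot be told apart. Each piglet gave 1 library, with 39.3 M (mega) to 44.2 M reads assigned to transcripts. On the first principal component of the 500 most variable transcripts (45.9% of the variance), 6161ST lay at -28.4 and 6165ST at -30.8. These wild-type libraries stood apart from the other 4. Of the 4, 6185STQ (1.78) was nearest to them, and 6407, 6434 and 6415 lay at 13.4, 19.8 and 24.2.

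Hair keratins are the intermediate filament proteins of the hair shaft and of claws, hooves and the tongue. A filament is built from pairs of 1 acidic type I and 1 basic or neutral type II chain, so that cells of the hair cortex make both types together. The filaments are then embedded in keratin-associated proteins and cross-linked through cysteines, and the transcription factor HOXC13 is known to act on several hair keratin promoters. Type I keratin genes lie in a cluster on chromosome 12 and type II genes in another on chromosome 5 of the pig. In the RefSeq annotation of Sscrofa11.1, *KRT31* has the hair keratin gene *KRT34* beside it, and *KRT84* has *KRT82* beside it. *MSRB3* is also on chromosome 5. Of 5 hair shaft and matrix markers, 4 had a named transcript, *HOXC13*, *DSG4*, *KRT85* and *KRT32*, and *S100A3* had none. Hair-forming cells were represented in every library, since these 4 had reads in all 6. Their summed level was 170.2 to 824 RPKM (reads per kilobase of transcript relative to the reads of the library). All 4 had been selected by the study in these piglets.

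*KRT31*, an acidic keratin of the hair cortex, had the highest level of the 5 in every library. Its level was 965 RPKM in 6161ST, 1893 RPKM in 6165ST and 496 RPKM in 6407 among the wild-type piglets. In the CNV/CNV piglets it was 571 RPKM in 6185STQ, 344 RPKM in 6415 and 414 RPKM in 6434. The wild-type piglet 6165ST was far above the rest, and 6407 lay below the CNV/CNV piglet 6185STQ, so that the groups overlapped. Ranked by RPKM, *KRT31* was transcript 45 of 20136 in 6165ST and transcript 194 of 20025 in 6415, its highest and lowest places. The log2 fold change, CNV/CNV over wild-type, was -1.19 (standard error 0.43, n = 3 and 3).

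*KRT33B*, a second acidic cortex keratin, followed the same order of piglets. The wild-type values were 462, 1036 and 262 RPKM in 6161ST, 6165ST and 6407. The CNV/CNV values were 329, 209 and 219 RPKM in 6185STQ, 6415 and 6434. Again 6165ST was the highest library and 6407 fell among the CNV/CNV piglets. The log2 fold change was -1.07 (standard error 0.44), the value closest to the 2-fold limit of the study's list among the members. *KRT32*, a type I keratin of the hair cuticle that the list also names, had -0.99, while its mean RPKM was 2.19-fold lower in CNV/CNV piglets. Other listed hair genes were also weaker than 2-fold in this fit, such as *KRT82* (-0.89) and *HOXC13* (-0.91). The study set its limit on fold changes from Cuffdiff, whereas these log2 fold changes are from edgeR, so the limit need not hold here. Transcripts outside the list have no name in the sources used here.

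*KRT81*, a basic cortex keratin that pairs with the acidic chains, was the type II member with the highest mean level. It had 426 RPKM in 6161ST, 1013 RPKM in 6165ST and 199.7 RPKM in 6407. In the CNV/CNV piglets the values were 101, 91.6 and 104 RPKM in 6185STQ, 6415 and 6434. Here all 3 CNV/CNV piglets lay below all 3 wild-type piglets, and they were close to each other (SD of 6.36 RPKM around a mean of 98.7 RPKM), whereas the wild-type piglets were spread widely (SD of 420 RPKM around 546 RPKM). The mean was 5.53-fold lower in CNV/CNV piglets and the log2 fold change was -2.32 (standard error 0.50). *KRT81* was the 1 member of 5 without overlap of the groups, in the lower direction, in which 12.1% of all transcripts tested did not overlap. In the higher direction 2.11% of the transcripts did not overlap and 0 members. Both shares stand here as background only, since the contrast chose the members.

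**Figure D1:**
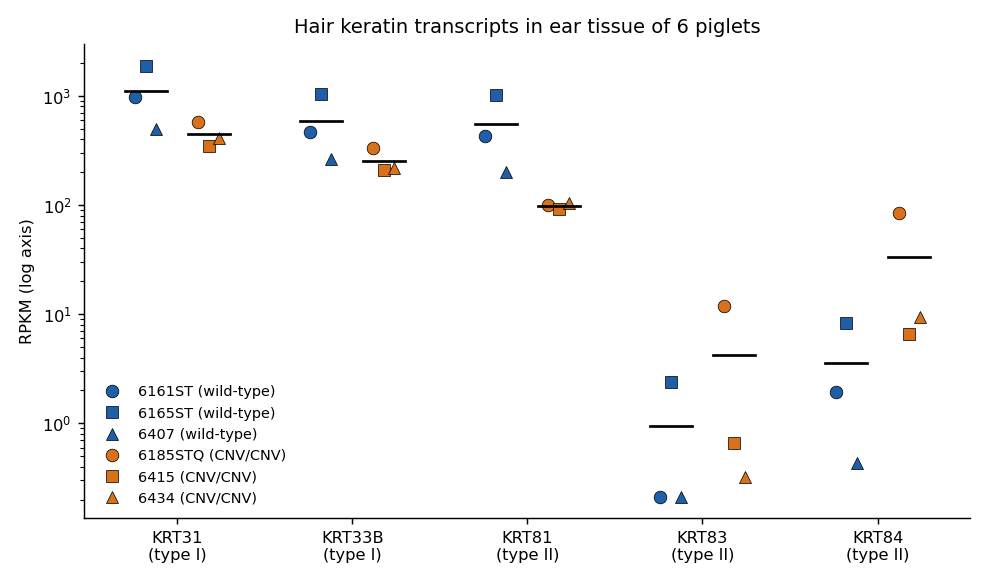
Each symbol is the RPKM (log axis) of 1 of the 5 hair keratin transcripts in 1 library. Blue stands for wild-type and orange for CNV/CNV, and bars mark the means over 3 libraries. KRT31, KRT33B and KRT81 are highest in 6165ST (1893, 1036 and 1013 RPKM), while KRT83 and KRT84 are highest in 6185STQ (11.8 and 84.8 RPKM).

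*KRT84*, a type II hair keratin known from the tongue and the nail, had a different pattern. Its level was 1.93, 8.30 and 0.434 RPKM in the wild-type piglets 6161ST, 6165ST and 6407. Among CNV/CNV piglets it was 84.8 RPKM in 6185STQ against 6.62 RPKM in 6415 and 9.52 RPKM in 6434. 6185STQ thus had more than all other libraries, and 6165ST lay between 6415 and 6434, so that the groups overlapped. The lowest and highest libraries differed 195-fold, compared with 5.50-fold for *KRT31*, 4.96-fold for *KRT33B* and 11.06-fold for *KRT81*. In 6185STQ *KRT84* was transcript 739 of 19819 by RPKM, but 14742 of 20087 in 6407. The log2 fold change was 3.39 (standard error 1.22) with all libraries and 1.34 (standard error 0.92) without 6185STQ.

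*KRT83*, which encodes a basic cortex keratin closely related to that of *KRT81*, had the lowest mean level of the 5. It was measured by 12, 134 and 13 reads in 6161ST, 6165ST and 6407, or 0.212, 2.41 and 0.214 RPKM. The CNV/CNV piglets 6185STQ, 6415 and 6434 had 636, 40 and 19 reads, or 11.8, 0.666 and 0.324 RPKM. 6185STQ was again the highest library and 6165ST the second, while the other 4 were below 1 RPKM. The log2 fold change was 2.31 (standard error 1.39), and without 6185STQ it had the opposite sign, at -0.78 (standard error 1.07). The direction of *KRT83* between the genotypes therefore hung on this 1 library. Uniquely mapped reads can be lost or misplaced between near-identical genes such as *KRT81* and *KRT83*. The levels of both genes, and the type II sums below that hold them, are uncertain to that degree.

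The depth behind these values differed widely between the members. *KRT31*, *KRT33B* and *KRT81* had 7758 to 121747 reads in each library and were covered over 99.2% to 99.9% of their length. For *KRT83*, 46.5% of the length was covered in 6161ST, 46.0% in 6407 and 59.3% in 6434, where it had 12 to 19 reads. Its coverage was 88.2% in 6415, 90.2% in 6165ST and 97.8% in 6185STQ. The reads behind the high value in 6185STQ were thus spread over nearly the whole transcript. *KRT84* was covered over 70.5% of its length by 28 reads in 6407, over 96.8% by 116 reads in 6161ST and over 98.8% to 99.9% in the other 4 libraries. As reads per 1 M reads, the Wilson 95% interval of *KRT83* was 0.167 to 0.511 in 6161ST and 15.0 to 17.5 in 6185STQ, which covers counting error only.

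**Figure D2:**
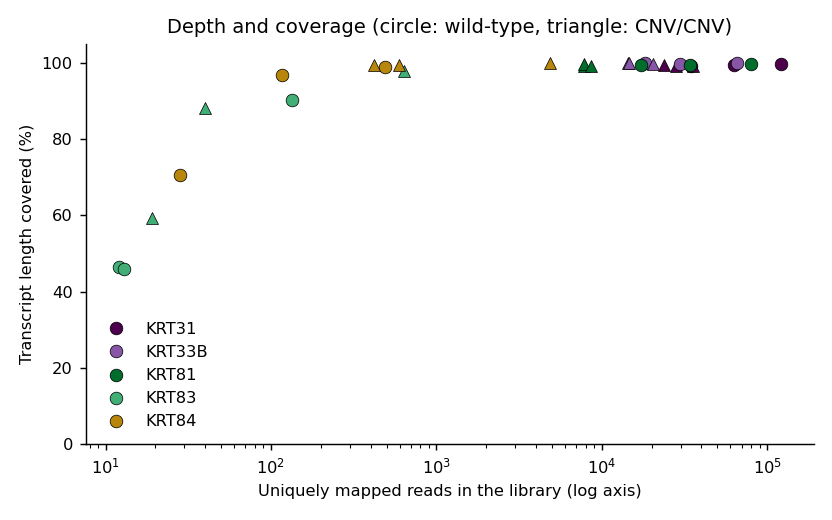
Share of the transcript length covered by reads (percent) against the number of uniquely mapped reads (log axis), with a point for each of the 5 transcripts in each of the 6 libraries. Coverage is above 99% for KRT31, KRT33B and KRT81 throughout and falls to 46.0% for KRT83 (13 reads in 6407).

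Summed over the members of each type, type I exceeded type II in all 6 libraries. The 2 type I members together had 1427, 2929 and 758 RPKM in 6161ST, 6165ST and 6407, and 901, 553 and 632 RPKM in 6185STQ, 6415 and 6434. The 3 type II members had 428, 1024 and 200.3 RPKM in the same wild-type piglets and 197, 98.9 and 114 RPKM in the CNV/CNV piglets. The ratio of type I to type II was 3.33, 2.86 and 3.79 in wild-type piglets and 4.56, 5.59 and 5.57 in CNV/CNV piglets. On the log2 scale its mean over the 6 libraries was 2.05 ± 0.40 (SD, n = 6). The genotypes did not overlap in this ratio, with a mean log2 ratio of 1.72 ± 0.20 (SD, n = 3) in wild-type and 2.38 ± 0.17 (SD, n = 3) in CNV/CNV piglets. This difference uses the contrast that chose the members and was not tested.

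The excess of type I rested in part on which genes were summed. With the other named hair keratins added, *KRT32*, *KRT33A* and *KRT39* to type I and *KRT82*, *KRT85* and a gene named for a type II microfibrillar component (7C-like) to type II, there were 5 type I and 6 type II transcripts. Their ratio was 2.02, 1.96 and 2.02 in the wild-type and 2.25, 2.52 and 2.59 in the CNV/CNV piglets. The mean log2 ratio was then 1.15 instead of 2.05, and the CNV/CNV minus wild-type difference was 0.29 instead of 0.66. The 3 wild-type piglets, whose summed type I levels ranged from 999.7 to 3861 RPKM, thus had nearly equal ratios. *KRT34*, *KRT35*, *KRT36*, *KRT37*, *KRT38*, *KRT40* and *KRT86* had no named transcript and were not analysed here, so neither sum covers all hair keratins.

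**Figure D3:**
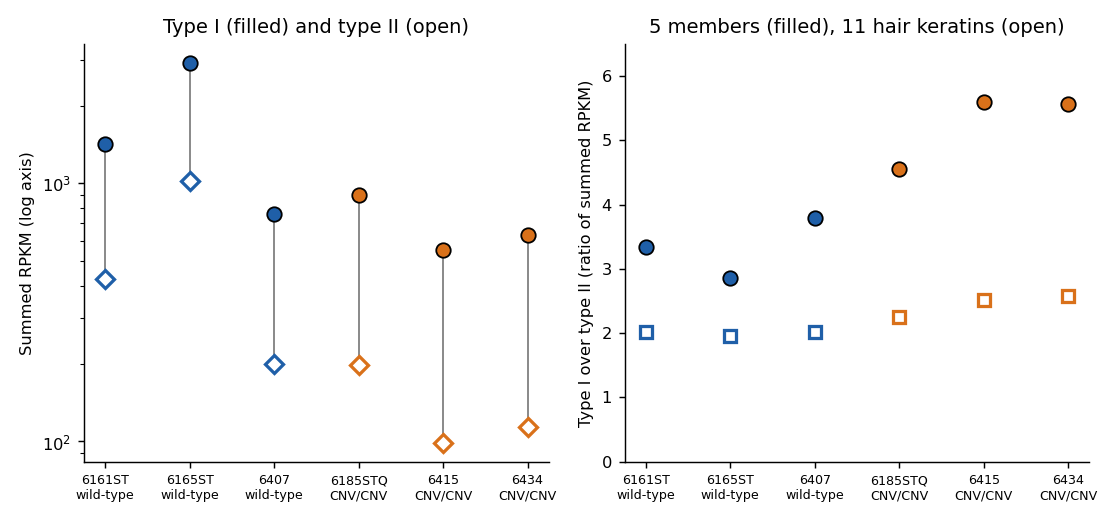
Left, summed RPKM of the type I (filled circles) and type II (open diamonds) members in each library, on a log axis. Right, type I over type II for the 5 members (filled circles, 2.86 to 5.59) and for all 11 hair keratins with a name (open squares, 1.96 to 2.59), with wild-type libraries in blue and CNV/CNV libraries in orange.

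Within type II, the share of each member changed between libraries. *KRT81* made up 99.5%, 99.0% and 99.7% of the type II sum in 6161ST, 6165ST and 6407, and 92.6% and 91.3% in 6415 and 6434. In 6185STQ it was 51.1%, with 43.0% from *KRT84*. The type II sum of 6185STQ (197 RPKM) was thus close to that of 6407 (200.3 RPKM), although *KRT81* was about as low in 6185STQ as in the other CNV/CNV piglets. Leaving *KRT84* out, the type I to type II ratio of 6185STQ was 7.997, the highest of the 6 libraries. Within type I, by contrast, *KRT31* held 62.3% to 67.6% of the sum in every library.

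Ratios between single members showed which of them moved together. *KRT31* over *KRT33B* was between 1.65 in 6415 and 2.09 in 6161ST, a spread of 1.27-fold across libraries in which each gene alone varied about 5-fold. *KRT33B* over *KRT81* was 1.08, 1.02 and 1.31 in the wild-type piglets 6161ST, 6165ST and 6407, that is, these acidic and basic cortex keratins had nearly equal levels per length. It was 3.26, 2.28 and 2.11 in the CNV/CNV piglets 6185STQ, 6415 and 6434, so that the groups did not overlap. The contrast chose both genes, so this is a description only. Among the other pairs some also did not overlap, such as *KRT31* over *KRT81* (1.87 to 2.48 in wild-type, 3.76 to 5.66 in CNV/CNV piglets). Others did overlap, such as *KRT31* over *KRT33B*. *KRT81* over *KRT84* ranged from 460.2 in 6407 to 1.19 in 6185STQ, and *KRT81* over *KRT83* from 2006 in 6161ST to 8.58 in 6185STQ. *KRT83* was below *KRT84* in all 6 libraries, with a ratio of 0.0341 in 6434 to 0.493 in 6407.

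The 5 members together took 0.310%, 0.664% and 0.159% of all assigned reads in 6161ST, 6165ST and 6407. In 6185STQ, 6415 and 6434 the shares were 0.177%, 0.107% and 0.122%. The Wilson 95% interval of the highest share was 0.662% to 0.667%, which covers counting error only and not the spread between piglets. For 3 of the 5 members the highest library was 6165ST, and for the other 2 it was 6185STQ. Over all transcripts tested, 20.7% were highest in 6165ST and 14.2% in 6185STQ.

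The members' profiles over the 6 libraries, as log2 CPM (counts relative to library size) minus the mean of the transcript, were compared with those of 207 other named transcripts by their mean absolute difference. The closest to *KRT31* were *KRTAP27-1*, a keratin-associated protein gene (0.075), and *KRT33A*, another acidic cortex keratin gene (0.080), against a median of 0.64 over the 207. *KRT33B*, at 0.086, was about as close to *KRT31*. For *KRT33B* itself the closest non-members were *CCL25*, a chemokine gene (0.10), and *GPRC5D*, a receptor gene of hair-forming cells (0.11). *KRT81* had no profile as near, with *FAM26D* at 0.39 and *PNPLA3*, a lipase gene, at 0.40. Next to *KRT84* stood *KRT83* (0.94), before *FOS*, an early response transcription factor gene (1.15), and *ADAM11* (1.21). *FOS* (1.28) and the gene listed as LVRM10082B02 (1.28) were the nearest non-members for *KRT83*. These distances describe 6 libraries, and the named transcripts had all been chosen by the study on the genotypes.

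**Figure D4:**
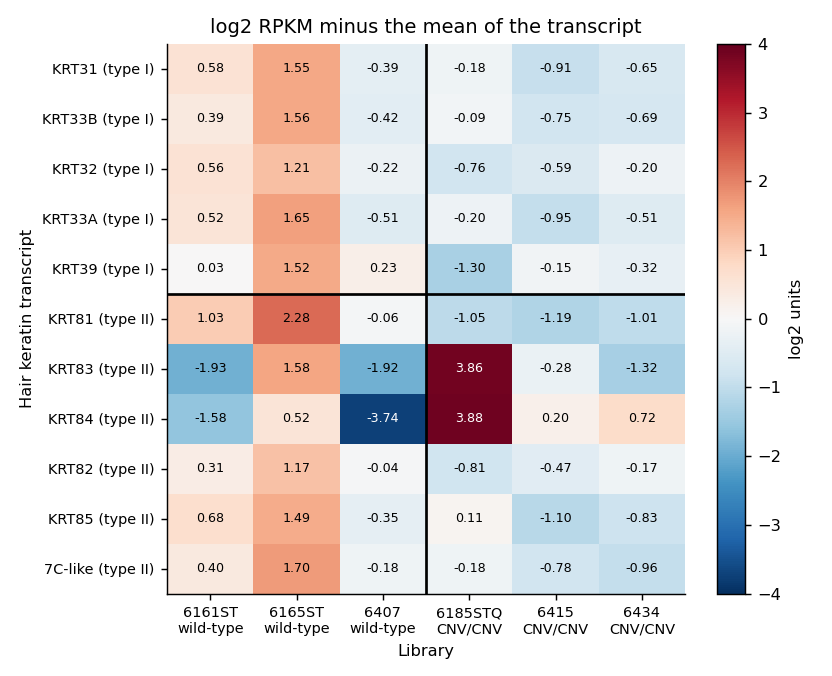
Heat map of log2 RPKM minus the mean of the transcript for 5 type I (above the line) and 6 type II hair keratins in 3 wild-type and 3 CNV/CNV libraries, with the value in log2 units in each cell. KRT83 (3.86) and KRT84 (3.88) stand out in 6185STQ, and 9 of the 11 transcripts are highest in 6165ST.

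The other hair genes of the list had their highest values in the library where *KRT31*, *KRT33B* and *KRT81* had theirs. Of 40 hair gene names beyond the members, 16 had a transcript in the study's list and in the libraries, and 16 of 16 had a lower fitted level in the CNV/CNV group, where the log2 fold changes ranged from -1.32 to -0.81 with a median of -0.98. Over all 16645 transcripts tested, 8362 were lower and the median was -0.0012. All 16 were highest in 6165ST, as were 20.7% of the transcripts tested. Among them *KRT85*, a type II keratin of the early hair shaft, had 318, 557 and 155 RPKM in the wild-type piglets 6161ST, 6165ST and 6407, and 214, 92.6 and 112 RPKM in the CNV/CNV piglets 6185STQ, 6415 and 6434. *KRT82*, a type II keratin of the hair cuticle and the RefSeq neighbour of *KRT84*, had 119, 217 and 93.6 RPKM and 55.0, 69.8 and 85.6 RPKM. The 84.8 RPKM of *KRT84* in 6185STQ thus went with the lowest *KRT82* value of the 6 libraries. *HOXC13*, the regulator of hair keratin genes, had 19.7, 31.0 and 13.3 RPKM in wild-type and 12.8, 7.98 and 10.1 RPKM in CNV/CNV piglets. In 8 of the 16 the groups did not overlap (14.2% of all transcripts in either direction), and the study chose all 16 on this contrast.

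With edgeR's quasi-likelihood test, 0 of the 5 members had an adjusted p (Benjamini-Hochberg over all transcripts tested) under 0.05, where 0.00601% of the transcripts did, and 4 had an unadjusted p under 0.05 (5.35% of the transcripts). DESeq2 called 1, *KRT81*, where it called 0.179% of transcripts, and gave no adjusted p for *KRT83*. The study chose the members on this contrast in these libraries, so these counts and shares are background only and no evidence. Leaving out 6165ST brought the log2 fold change to -0.60 for *KRT31*, -0.40 for *KRT33B* and -1.54 for *KRT81*, and to 4.40 for *KRT83* and 4.96 for *KRT84*. Without 6161ST and 6165ST, which stood apart, the values were -0.11, -0.0079 and -0.96 for *KRT31*, *KRT33B* and *KRT81* against the 1 remaining wild-type piglet, 6407. *KRT83* and *KRT84* were then at 4.34 and 6.31.

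**Figure D5:**
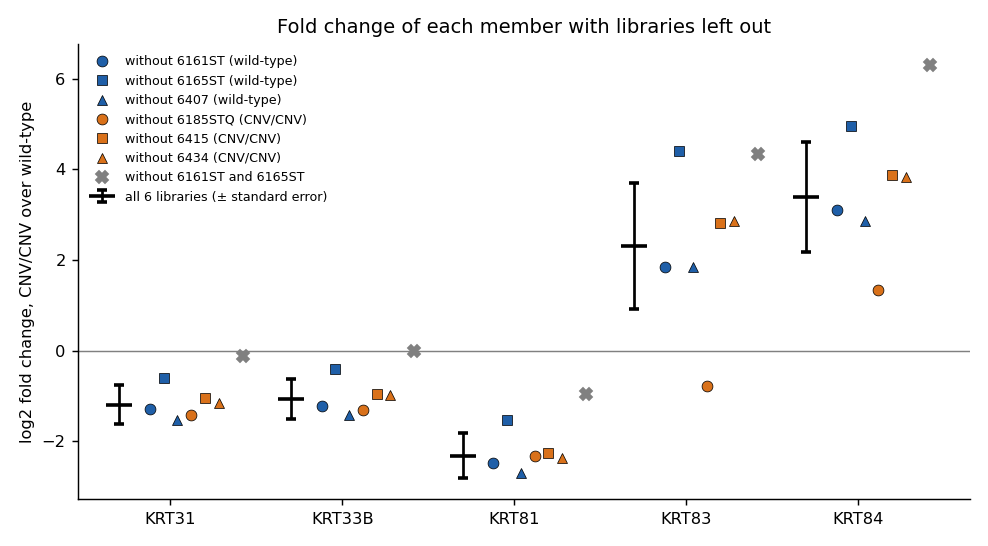
log2 fold change of each member, CNV/CNV over wild-type, with all 6 libraries (black, ± standard error), with each library left out in turn and without 6161ST and 6165ST together (grey). KRT31 moves from -1.54 to -0.60 and KRT83 from -0.78 to 4.40 as single libraries are left out.

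Markers of other cells of the ear differed between the same libraries. The summed level of 8 of 8 melanocyte markers was 159.99 to 294 RPKM in wild-type and 88.2 to 159.8 RPKM in CNV/CNV piglets. It was highest in 6165ST, like *KRT31*, *KRT33B* and *KRT81*. For 9 of 9 chondrocyte markers it was 75.2 RPKM in 6161ST, 11.3 RPKM in 6165ST and 683 RPKM in 6407, against 481 to 1028 RPKM in CNV/CNV piglets. The 3 sebaceous markers reached 92.3 and 87.1 RPKM in 6161ST and 6165ST, where 6407 had 29.7 RPKM and the CNV/CNV piglets 18.8 to 29.4 RPKM. The 4 fibroblast matrix markers had 1065 and 1244 RPKM in 6161ST and 6165ST and 6019 RPKM in 6407. In the CNV/CNV piglets they had 1744 RPKM in 6185STQ, 9555 RPKM in 6415 and 7078 RPKM in 6434. For these markers 6185STQ was thus nearer to 6161ST and 6165ST than to the other CNV/CNV piglets. None of these markers was at 0 in any library. The markers had also been chosen by the study, and their part in the keratin values was not tested.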

How the data were processed

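RNA of ear tissue from 6 Sutai piglets was sequenced, 1 library per piglet. The authors deposited counts of uniquely mapped reads per Ensembl transcript, RPKM made from these counts, and the percent of each transcript's length covered. RPKM recomputed from count, length and total matched for 100% of transcripts at a relative tolerance of 0.001. The article names TopHat and Sscrofa 11.1, the submitters' processing notes Bowtie2, TopHat, Cuffdiff and Sscrofa10.2, so the build is open and no positions are given. No counting program is named, and strand use was not given in the sources used here. Unlisted transcripts were set to 0. Names came from the study's list of 280 identifiers (264 in the libraries), since the reference tables matched 0. *KRT33A* is the RefSeq symbol of a gene ID in that list.

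Genotypes (QQ and qq) were compared in R 4.3.3 with edgeR 4.0.16 on the deposited counts (filterByExpr, TMM, glmQLFTest), with standard errors from the F value and a prior count of 2 for log2 CPM. Simulated counts with known changes served as a test of the fit. They had the same dispersion for all transcripts and no library set apart, so they do not show how the fit behaves otherwise. DESeq2 1.42.0, upper quartile or no composition scaling, no filter and leaving out each piglet were alternatives; leaving out 6161ST and 6165ST together was added after seeing the data. The members and lists were chosen with earlier results of these data known, so a planned sign-flip test of the type I to type II ratio is not reported. Named are the members, hair genes of fixed lists (inner root sheath keratins had 0 named transcripts) and the 2 nearest profiles of each member with a mean of at least 1 RPKM. P-values set the difference between the genotypes against the spread between piglets.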

Additional observations from a re-analysis of the deposited data

How the results depend on the processing

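DESeq2, upper quartile scaling, library totals alone and no expression filter left the log2 fold changes of the 5 members within 1 SD of the values given. Library totals alone moved the median of all transcripts to -0.13. Leaving out single libraries gave -1.54 to -0.60 for *KRT31*, -1.42 to -0.40 for *KRT33B*, -2.71 to -1.54 for *KRT81*, -0.78 to 4.40 for *KRT83* and 1.34 to 4.96 for *KRT84*. The sign of *KRT83* turned without 6185STQ (-0.78). Without 6161ST and 6165ST together, *KRT31*, *KRT33B*, *KRT81* and *KRT84* were at -0.11, -0.0079, -0.96 and 6.31. For the type I to type II ratio (log2), leaving out single libraries gave 1.97 to 2.16, the mean per member 2.64 and all named hair keratins 1.15. Its difference between genotypes was 0.55 to 0.76 with single libraries left out, 0.29 with all named hair keratins, 0.997 without *KRT84* and 0.46 without 6161ST and 6165ST. Of all transcripts, edgeR called 1, and it called 2 with library totals alone, 3 with no filter, 0 to 6 with single libraries left out and 0 without 6161ST and 6165ST, while DESeq2 called 28. The fit without both leaves 1 wild-type library, which is assumed to vary like the CNV/CNV group, so its count says nothing about stability. The cause of these shifts was not tested. No paired analysis was possible because the piglets are separate animals that the labels neither number nor tie to each other across the genotypes. Depth limits *KRT83*, with 12 to 40 reads in 4 libraries, and groups of 3 limit all members.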

Other observations

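Of 7 keratin names fixed for tissue outside the hair shaft, 2 had a named transcript in the libraries, *KRT8* and *KRT13*. *KRT8*, a type II keratin of simple epithelium such as glands, had 49.7, 48.5 and 23.3 RPKM in the wild-type piglets 6161ST, 6165ST and 6407, and 17.7, 17.4 and 23.9 RPKM in the CNV/CNV piglets 6185STQ, 6415 and 6434. *KRT13*, a type I keratin of mucosal epithelium, had 51.3, 47.8 and 34.8 RPKM and 16.4, 28.6 and 7.10 RPKM in the same order. Both were highest in 6161ST, by a small margin over 6165ST, and 28.8% of all transcripts tested were highest in 6161ST. Their log2 fold changes were -0.90 (standard error 0.27) and -1.23 (standard error 0.42), given as a description since the study selected both on this contrast.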
